A study of Mus musculus with 2 samples.

Results

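The actin and smooth muscle genes that depend on serum response factor (SRF) were examined in mouse ES cells 72 h after withdrawal of LIF, the cytokine that sustains self-renewal. The set holds *Srf* and 9 genes of the contractile cytoskeleton, *Acta2*, *Actg2*, *Actc1*, *Tagln*, *Cnn1*, *Cnn2*, *Myl9*, *Tpm1* and *Tpm2*, chosen by symbol out of 21935 symbols in the deposited tables. All 10 were found, and for *Tpm1*, which has 10 RefSeq entries, the entry with the highest mean level was used. Both cultures were R1 ES cells, grown on irradiated embryonic fibroblasts with LIF and then without LIF, by the sample labels in low-attachment dishes, which favour three-dimensional growth (the study's methods also name gelatin-coated dishes). The shKdm5b cells carried a lentiviral short hairpin RNA against *Kdm5b*, which encodes an H3K4 demethylase, and the shLuc control cells carried one against luciferase. The cells were selected with puromycin and are not described as clones. Polyadenylated RNA gave 1 library per condition, so that differences below carry counting error but no error between cultures, and what belongs to a library cannot be told apart from what belongs to its shRNA.

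SRF is a transcription factor that binds the CArG box, a short element with an A and T rich core, in the promoters of immediate-early genes and of genes for actin and its partners. Ternary complex factors (ELK1, ELK3, ELK4) bring ERK signals to it, whereas the myocardin-related factors MRTF-A and MRTF-B (*Mkl1*, *Mkl2*) respond to the pool of free actin, which RhoA signaling lowers. Myocardin itself drives the smooth muscle program. Smooth muscle actins, calponin, transgelin, the regulatory myosin light chain and tropomyosins are the usual readout of this pathway in smooth muscle and in spread or contracting fibroblasts.

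CArG boxes in the promoters of these genes are shown first, since SRF binds them. The set itself was chosen by symbol and not by these boxes. RefSeq promoter windows (GRCm38.p6, 250 bases before to 50 bases after the start) were matched by symbol for 8 of the 10 genes. *Actg2* and *Tagln* were not matched. An exact CArG box, with a core of 6 bases that are all A or T, was found in 4 of these 8 windows and in 1.63% of all 32851 windows. The box reads alike on both strands. Allowing 1 core base to be C or G, 5 of 8 windows and 9.98% of all windows held a box. In the stretches below, written 5′ to 3′ on the strand of the gene, capitals mark exact boxes and boxes with 1 such core base.
*Srf*, chr17:46556195-46556264, minus strand: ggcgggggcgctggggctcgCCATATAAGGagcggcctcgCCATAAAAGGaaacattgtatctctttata
*Acta2*, chr19:34255378-34255477, minus strand: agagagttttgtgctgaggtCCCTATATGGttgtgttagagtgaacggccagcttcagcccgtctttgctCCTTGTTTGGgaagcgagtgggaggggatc
*Actc1*, chr2:114052893-114052942, minus strand: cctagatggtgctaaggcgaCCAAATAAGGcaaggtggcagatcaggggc
*Cnn2*, chr10:79988524-79988573, plus strand: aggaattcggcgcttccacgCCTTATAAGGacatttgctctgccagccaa
*Myl9*, chr2:156775283-156775394, plus strand: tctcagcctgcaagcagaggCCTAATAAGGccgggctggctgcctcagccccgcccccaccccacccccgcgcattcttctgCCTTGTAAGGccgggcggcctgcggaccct
*Srf* had 2 exact boxes, whose first bases lay 82 and 62 bases upstream of the start, and *Actc1*, *Cnn2* and *Myl9* had 1 each, at 47, 56 and 161 bases. Both boxes of *Acta2*, at 84 and 34 bases, had 1 core base that was C or G. *Actc1* had 3 more boxes of this kind, at 175, 138 and 87 bases, which lie outside the stretch printed. *Myl9* had 1 more, at 99 bases. The windows of *Cnn1*, *Tpm1* and *Tpm2* held neither kind of box, which says only that these letters were not in the window.

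The libraries held 78172698 aligned reads for shLuc and 72702698 for shKdm5b, and the totals behind the deposited RPKM values (reads scaled to the transcript length and to the aligned reads of the library) were the same numbers. *Kdm5b*, the targeted gene, was at 104 RPKM in shLuc and at 3.01 RPKM in shKdm5b, 2.88% of the control. All 6 listed ES cell markers had an RPKM above 1 in both libraries, and 1 was higher and 2 were lower by more than 1.5-fold in shKdm5b. *Dppa5a*, the most abundant, was higher (1096 and 1651 RPKM in shLuc and shKdm5b). *Pou5f1* (619 and 182 RPKM) and *Esrrb* (80.5 and 41.2 RPKM) were lower. *Sox2* (237 and 272 RPKM), *Nanog* (90.2 and 85.0 RPKM) and *Zfp42* (108 and 92.5 RPKM) stayed within 1.5-fold. Of the 11804 genes with an RPKM above 1 in at least 1 library, 48.3% differed by more than 1.5-fold, 16.3% of all being higher and 32.0% lower in the shKdm5b library, and the median log2 ratio was -0.21. Scaling to a median ratio of 1, over genes above 1 RPKM in both libraries, adds up to 0.17 to a log2 ratio. The TMM factors of edgeR add up to 0.22. The shift is smaller for genes near 0.1 RPKM, the value added before taking logs.

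The SRF-dependent genes did not move together between the shLuc and shKdm5b libraries. Of the 10 genes, 8 had an RPKM above 1 in at least 1 library, and 4 of these (50%, against 48.3% of all genes) differed by more than 1.5-fold. *Cnn1* and *Myl9* were higher and *Srf* and *Acta2* were lower in the shKdm5b library. Among the 8 genes, log2 ratios of shKdm5b to shLuc ranged from -0.73 to 1.14, and their median was 0.14, against -0.21 for all expressed genes. Over all 10 genes, with *Actg2* and *Actc1* below 1 RPKM, the median was -0.17. The RPKM values of the set summed to 60.5 in shLuc and to 60.2 in shKdm5b. With the exact test of edgeR added to the thresholds, which compares the 2 libraries and not the conditions, 3 members (*Srf*, *Cnn1* and *Myl9*) passed at an assumed dispersion of 0, where 47.0% of all genes did. No member passed at a dispersion of 0.04, where 2.30% of genes did, or of 0.16, where 0.00847% did. With each library scaled to the same median, 3 genes passed the 1.5-fold threshold, all higher (*Cnn1*, *Myl9* and *Tpm1*), because *Srf* and *Acta2* came within 1.5-fold. This scaling raises the ratios of all genes, not of the members alone. The share of all genes past the threshold after it was not counted. In bulk RNA, fewer cells of a type and less RNA per cell cannot be told apart. Log2 ratios are on the log2(RPKM + 0.1) scale, and the intervals beside them are 95% exact Clopper-Pearson intervals computed from its read counts without a pseudocount, which cover counting error only.

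**Figure D1:**
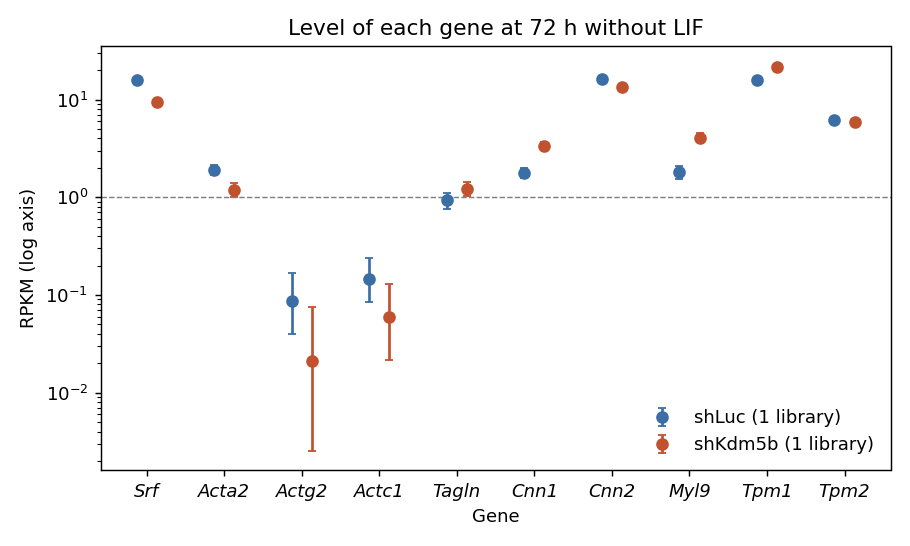
Level of each of the 10 genes as RPKM on a log axis, in the 1 shLuc library (blue) and the 1 shKdm5b library (orange), with 95% exact Poisson intervals from the reads and a dashed line at 1 RPKM. *Cnn2*, *Tpm1* and *Srf* lie near 16 RPKM in the shLuc library and separate in the shKdm5b library, while *Actg2* and *Actc1* stay below 1 RPKM in both.

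*Srf*, the transcription factor of the set, had 5038 reads (15.7 RPKM) in shLuc and 2820 reads (9.48 RPKM) in shKdm5b. Its log2 ratio was -0.73 (-0.80 to -0.67), a 1.65-fold lower level in the shKdm5b library. A ratio smaller than this was found for 26.4% of all expressed genes, so that *Srf* lay within the middle part of the distribution. The *Srf* transcript is rich in G and C (64.4% in the matched GENCODE transcript, which holds 2616 of the 4093 bases of the deposited entry). Across 11533 expressed genes the log2 ratio fell with GC content (Spearman correlation -0.53 across genes, which are not independent replicates), and after a lowess correction for GC content the log2 ratio of *Srf* was 0.27, the opposite direction. After this correction all expressed members but *Acta2* had a positive log2 ratio. Of the members, 4 passed 1.5-fold, all higher (*Cnn1*, *Myl9*, *Tagln* and *Tpm1*), where 36.7% of genes passed, 18.6% higher and 18.1% lower. The direction of *Srf* therefore depends on whether GC content is corrected for.

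Of the muscle actins, *Acta2* was close to *Myl9* and *Cnn1* in RPKM in the shLuc library and below both in the shKdm5b library, and *Actg2* and *Actc1* were the least expressed of the set in both. *Acta2*, smooth muscle α-actin, had 266 reads (1.91 RPKM) in shLuc and 153 reads (1.18 RPKM) in shKdm5b. Its log2 ratio was -0.65 (-0.99 to -0.40), 1.57-fold lower, and the counting interval reached below the 1.5-fold threshold. After the GC correction it was -0.49, which keeps the direction and falls within 1.5-fold. *Actg2*, enteric smooth muscle γ-actin, had 9 and 2 reads (0.0876 and 0.0209 RPKM), where 3 reads are 0.0292 and 0.0314 RPKM. *Actc1*, cardiac α-actin, had 16 and 6 reads (0.147 and 0.0594 RPKM). The log2 intervals of *Actg2* (-5.31 to 0.21) and *Actc1* (-2.95 to 0.12) include 0, so no difference was detectable at this depth. Actin coding sequences are alike between paralogs, but of the windows of 50 bases, the read length, in the matched *Acta2* transcript only 0.352% occurred unchanged in a transcript of another gene, and none of those of *Actg2* or *Actc1* did. Reads placed with mismatches were not tested.

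The calponins, actin-binding proteins that restrain contraction, split by paralog. *Cnn1*, the smooth muscle calponin, had 274 reads (1.76 RPKM) in shLuc and 482 reads (3.34 RPKM) in shKdm5b. It was 1.84-fold higher (log2 ratio 0.88, 0.70 to 1.14), and 8.60% of expressed genes had a larger ratio. *Cnn2*, the calponin of many non-muscle cells, had 2244 and 1729 reads and an RPKM of 16.1 and 13.3, a log2 ratio of -0.27 (-0.36 to -0.18) that is close to the median of all genes and became 0.21 after the GC correction. The level of *Cnn1* was 0.110 times that of *Cnn2* in the shLuc library and 0.250 times in the shKdm5b library, a ratio that scaling of the libraries does not alter.

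*Tagln*, which encodes transgelin (SM22α), was near 1 RPKM in both libraries, with 115 reads (0.928 RPKM) in shLuc and 140 reads (1.21 RPKM) in shKdm5b. Its log2 ratio was 0.35 (0.02 to 0.76), within 1.5-fold, and 0.73 after the GC correction. This value is uncertain because 48.3% of the windows of 50 bases in *Tagln* also occur in transcripts of overlapping or neighboring annotations (*Gm48529* and *Pcsk7*), and the library preparation as described does not mark strand.

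*Myl9*, a regulatory myosin light chain of smooth muscle and non-muscle cells, differed most among the expressed members. It had 152 reads (1.80 RPKM) in shLuc and 322 reads (4.09 RPKM) in shKdm5b, 2.21-fold higher (log2 ratio 1.14, 0.90 to 1.48). Of the expressed genes, 4.10% had a larger ratio. *Myl9* has a GC content of 56.6%, above the median of 50.5% for expressed genes, and its log2 ratio was 1.82 after the GC correction and 1.40 when transcript length was corrected for as well. In the shLuc library the RPKM of *Acta2*, *Myl9* and *Cnn1* had overlapping counting intervals. In the shKdm5b library *Myl9* stood at 3.46 times and *Cnn1* at 2.82 times the RPKM of *Acta2*, against 0.939 and 0.923 times in the shLuc library.

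**Figure D2:**
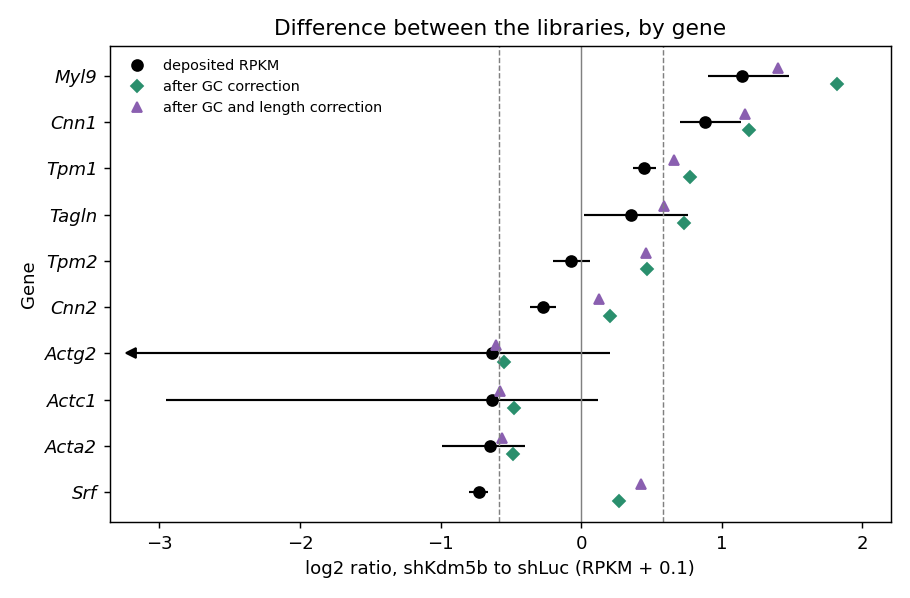
Log2 ratio of shKdm5b to shLuc for each gene from the deposited RPKM (black circles, with 95% Clopper-Pearson counting intervals as lines, the arrow marking an interval that goes on to the left), after the GC correction (green diamonds) and after the GC and length correction (purple triangles), with dashed lines at 1.5-fold. *Myl9* and *Cnn1* lie to the right of 1.5-fold under all 3, whereas *Srf* moves from -0.73 to 0.27 and 0.42.

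**Figure D3:**
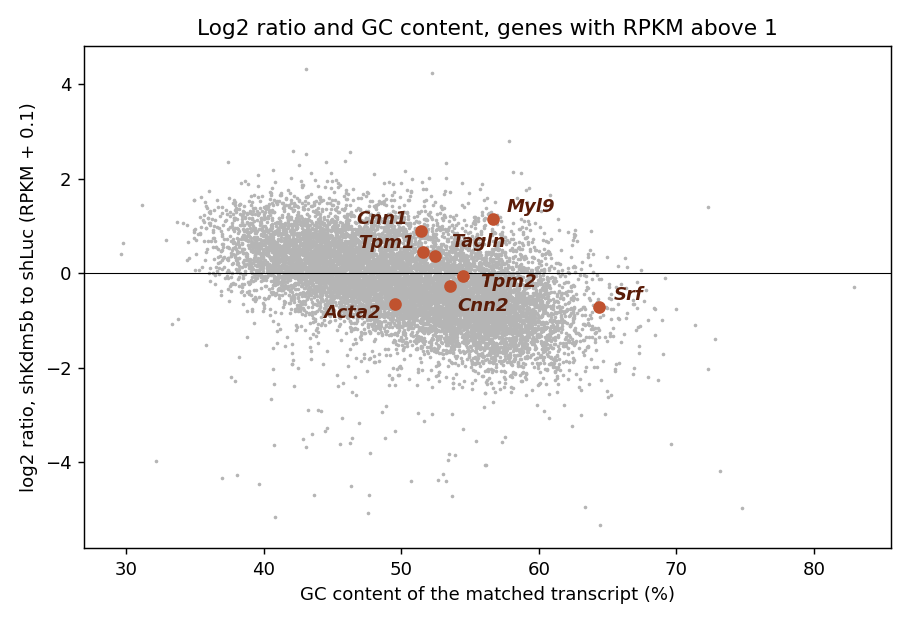
Log2 ratio of shKdm5b to shLuc against the GC content of the matched transcript, for 11533 genes with an RPKM above 1 in at least 1 library (grey) and the 8 expressed members (orange). Ratios fall with GC content. Of the 8 members only *Acta2* lies below the trend at its GC content, while *Myl9* lies farthest above it (by 1.82) and *Srf* lies above it by 0.27.

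Tropomyosins line the actin filament and set which myosins and actin-binding proteins reach it. *Tpm1* had the highest RPKM of the set in the shKdm5b library. In the entry used it had 2073 reads (15.8 RPKM) in shLuc and 2634 reads (21.6 RPKM) in shKdm5b, a log2 ratio of 0.45 (0.37 to 0.53), within 1.5-fold. This entry has the smallest ratio of the 10, and with the RPKM of all entries summed, which counts shared reads more than once, the log2 ratio was 0.70, past 1.5-fold. *Tpm2*, β-tropomyosin, had 1008 and 892 reads and an RPKM of 6.15 and 5.85, a log2 ratio of -0.07 whose interval (-0.20 to 0.06) includes 0. *Tpm1* exceeded *Tpm2* by 2.58 times in the shLuc library and 3.70 times in the shKdm5b library. After the GC correction *Tpm1* had a log2 ratio of 0.78, past 1.5-fold, and *Tpm2* one of 0.47.

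The 10 entries of *Tpm1* did not differ between the libraries by the same amount. *Tpm1* is spliced to alternative starts, alternative exons 2 and 6, and alternative 3′ ends, and the entries share most of their reads. By the matched GENCODE transcripts, 5 entries carry the end farthest from the shared exons, which is the end of smooth muscle and non-muscle tropomyosin. The end nearest to the shared exons, carried by 3 entries, is that of striated muscle tropomyosin, and the middle end, carried by 2, is that of brain tropomyosin. The log2 ratios were 0.45 to 0.61 for the entries with the farthest end, 0.49 and 0.80 for those with the middle end, and 0.92 to 1.21 for those with the nearest end. Entries with the nearest end had at most 10.5 RPKM in shLuc and at least 19.2 RPKM in shKdm5b, a more than 1.5-fold difference in all 3. The coding parts of the 3 ends, which follow the same shared exon, are printed 5′ to 3′ on the strand of the gene (GRCm38, minus strand, from the GENCODE transcripts), with the stop codon in capitals.
Nearest end, chr9:67029664-67029742 joined to chr9:67028164-67028167: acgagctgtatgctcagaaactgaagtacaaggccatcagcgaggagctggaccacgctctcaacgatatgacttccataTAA
Middle end, chr9:67024492-67024565: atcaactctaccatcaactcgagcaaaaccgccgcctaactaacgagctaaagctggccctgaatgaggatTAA
Farthest end, chr9:67023359-67023441: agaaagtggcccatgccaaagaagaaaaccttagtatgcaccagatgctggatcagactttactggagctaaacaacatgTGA

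Reads on the alternative *Tpm1* exons were separated by subtracting entries that differ in those exons alone. Every deposited alignment covers 50 consecutive bases, so that the reads of an entry are a sum over its exons, and each difference came out the same to the read in the pairs of entries that gave it, once 1 entry (NM_001164254) was assigned the other exon 6 than the one in its matched transcript. With the exon of its matched transcript, that entry would give 1100 and 915 reads for the farthest over the nearest end in place of 1052 and 917. Pairs that give the same difference are sums over the same exon reads, so their agreement is not replication. The nearest end had 79 more reads than the middle end in the shLuc library and 545 more in the shKdm5b library, from 2 pairs. As RPM (reads scaled to the aligned reads of the library as in RPKM, without the length) these differences were 1.01 (counting SD at most 0.492) and 7.50 (at most 0.732), so that they differ by more than counting error allows. Since the middle end cannot have fewer than 0 reads, 79 and 545 are the least that the nearest end can have had. The farthest end had 1131 more reads than the middle end in shLuc and 1462 more in shKdm5b, 14.5 (SD at most 0.643) and 20.1 (SD at most 0.842) RPM. Between the farthest and the nearest end the difference was 13.5 RPM in shLuc and 12.6 RPM in shKdm5b, with SDs of at most 0.653 and 0.901. The excess over the middle end was thus higher in shKdm5b than in shLuc for both the nearest and the farthest end. The ends differ in length and the reads on the middle end are not known. With the distal start, the nearest-end entry is shorter than the middle-end entry (1210 against 1575 deposited bases). The nearest end was therefore higher per base than the middle end, in shLuc from 79 reads with a counting SD of at most 38.4. The farthest-end entry is longer (1702 bases), but its extra reads exceed all reads of the middle-end entry (699 and 1142). The farthest end was thus also higher per base than the middle end. The farthest and nearest ends cannot be ranked per base from these differences.

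The starts of *Tpm1* also differed in their reads. The short tropomyosins are made from the internal start exon. It had 195 more reads than the distal start exon together with exon 2 in the shLuc library and 32 more in the shKdm5b library. The 4 pairs that give this difference share the same exon reads and are not replicates. In RPM the difference was 2.49 (SD at most 0.511) and 0.440 (SD at most 0.662). For the choice of exon 6 the difference was 48 and -2 reads, and for exon 2 it was -3 and -33 reads, which is within or close to the largest counting SD (40.1 and 58.1 reads for exon 6, 60.5 and 71.9 reads for exon 2). In the matched GENCODE transcripts the GC content is 71.8% for the internal start exon, 64.4% for the distal one and 50% for the exon 2 counted with it. It is 50.6% and 45.3% for the exons of the nearest end, 47.9% for the middle end and 44.8% for the farthest. The entries with the middle end have 1575 and 1548 deposited bases, but their matched transcripts have 1054 and 2890. The GC content of the middle end may therefore not be that of the exon counted. The part of GC content in these differences was not tested.

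**Figure D4:**
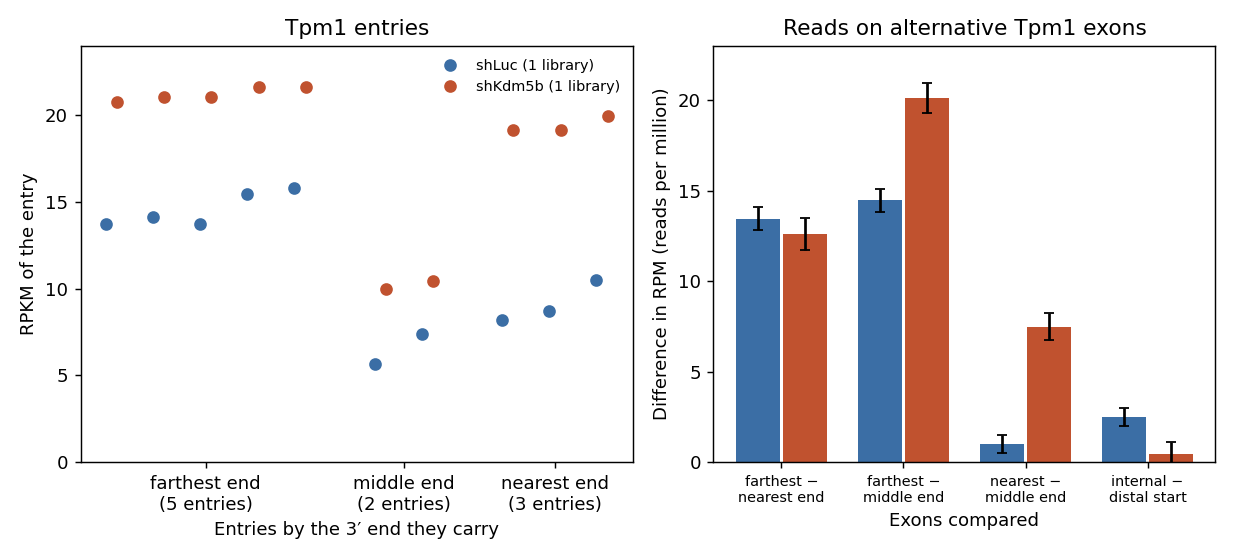
Left, RPKM of the 10 *Tpm1* entries in each library, grouped by the 3′ end they carry. Right, differences in RPM between alternative *Tpm1* exons, shLuc in blue and shKdm5b in orange, with bars of the largest possible counting SD. The nearest end exceeds the middle end by 1.01 RPM in shLuc and 7.50 in shKdm5b.

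Of the 6 listed cofactors that bring signals to SRF, 5 had an RPKM above 1, and 2 of these passed the thresholds, both lower, where 32.0% of all genes were lower and 48.3% passed in either direction. The median log2 ratio over the 6 was -0.44, and over the 5 above 1 RPKM it was -0.54. *Mkl1* (MRTF-A) had an RPKM of 6.84 and 3.73, a log2 ratio of -0.86 (-0.98 to -0.77). *Elk1* had an RPKM of 7.53 and 4.52, a log2 ratio of -0.72 (-0.84 to -0.63). *Elk4* had an RPKM of 1.71 and 1.15 and *Elk3* of 1.65 and 1.29, and *Mkl2* (MRTF-B) had 2.61 and 2.82, all within 1.5-fold. *Myocd*, the smooth muscle cofactor, had 4 and 7 reads. After the GC correction 0 of the 6 cofactors passed the thresholds, where 36.7% of all genes did, with -0.12 for *Mkl1* and -0.37 for *Elk1*.

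Of the 9 listed genes that link RhoA to actin, all above 1 RPKM, 1 was higher and 3 were lower, a share near the 48.3% of all genes, with a median log2 ratio of 0.09. *Rock1*, a kinase downstream of RhoA, had an RPKM of 9.81 and 20.9 (log2 ratio 1.08, 1.04 to 1.14). *Diap1*, a formin that polymerizes actin, had an RPKM of 35.9 and 15.5 (log2 ratio -1.20, -1.26 to -1.16), and *Limk1* and *Limk2*, kinases that inactivate cofilin, had log2 ratios of -0.90 and -0.77. The 3 with the highest levels, *Cfl1* (cofilin, log2 ratio 0.09), *Pfn1* (profilin, 0.54) and *Rhoa* itself (0.41), stayed within 1.5-fold. *Rock1* (0.62) and *Diap1* (-0.84) remained past 1.5-fold after the GC correction, in which *Pfn1* (1.15) and *Diap3* (-0.62) also passed.

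Immediate-early genes, the targets of SRF with ternary complex factors, were read from 9 genes, of which 6 had an RPKM above 1 and 4 passed the thresholds, 1 higher and 3 lower, where 48.3% of all genes passed. The median log2 ratio over all 9 was -0.57, and over the 6 above 1 RPKM it was -0.65. *Junb* (10.4 and 2.82 RPKM, log2 ratio -1.84), *Ier2* (75.1 and 31.0 RPKM, -1.28) and *Egr1* (7.84 and 3.97 RPKM, -0.96) were lower, and *Fos* (1.84 and 3.51 RPKM, 0.90) was higher. *Mcl1*, the most abundant of them, had an RPKM of 212 and 221. After the GC correction *Junb* (-0.92) and *Fos* (1.24) remained past 1.5-fold, and *Ier2* (-0.38) and *Egr1* (-0.49) did not.

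Of 18 cytoskeletal targets of SRF outside the set, 14 had an RPKM above 1, and 3 were higher and 3 lower by more than 1.5-fold. This share is again near the 48.3% of all genes (16.3% higher and 32.0% lower). The median log2 ratio was -0.28 over the 14 and -0.11 over all 18. The most abundant, *Actb* (β-actin), had an RPKM of 1034 and 762 (log2 ratio -0.44), and *Actg1* (γ-actin) one of 458 and 295 (-0.63). *Flna*, an actin crosslinker, had an RPKM of 40.2 and 13.5 (-1.57), and *Tln1*, which links integrins to actin, had 7.55 and 2.41 (-1.61). *Cald1*, caldesmon, an actin-binding protein of smooth muscle and non-muscle cells, had 1956 and 5278 reads (1.52, 1.46 to 1.61). *Ctgf* (0.74) and *Pdlim5* (0.63) were also higher. *Flna*, *Tln1*, *Cald1*, *Ctgf* and *Pdlim5* kept their direction past 1.5-fold after the GC correction, with -1.08, -0.92, 1.28, 1.09 and 1.02, whereas *Actg1* had -0.23. *Zyx* (1.38) and *Pdlim7* (0.82) passed 1.5-fold only with the correction.

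Paralogs of the set were mostly more abundant than its members. Of 11 listed genes, all above 1 RPKM, 3 were higher and 2 lower, near the 48.3% of all genes (16.3% higher and 32.0% lower), with a median log2 ratio of 0.15. The regulatory myosin light chains of this list were higher along with *Myl9*. *Myl12b* had an RPKM of 86.0 and 191 (log2 ratio 1.15) and *Myl12a*, listed as *2900073G15Rik*, 52.5 and 127 (1.27). The regulatory light chains among the muscle markers were not past the thresholds, *Myl7* with 1.60 and 1.52 RPKM (-0.08) and *Myl2* with 9 and 15 reads. *Myl9*, *Myl12b* and *Myl12a* were past 1.5-fold also after the GC correction (1.53 for *Myl12b* and 1.51 for *Myl12a*). *Cnn3*, the most abundant calponin, had an RPKM of 94.6 and 160 (0.76, 0.73 to 0.79). *Acta1*, skeletal muscle α-actin, was lower with 4.10 and 1.68 (-1.24), as was *Actg1*, and both came within 1.5-fold after the GC correction, which brought *Tagln3* (0.85) and *Myl6* (0.62) past it. Of the remaining tropomyosins, *Tpm3* had 81.4 and 81.7 and *Tpm4* 58.1 and 78.3, within 1.5-fold.

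**Figure D5:**
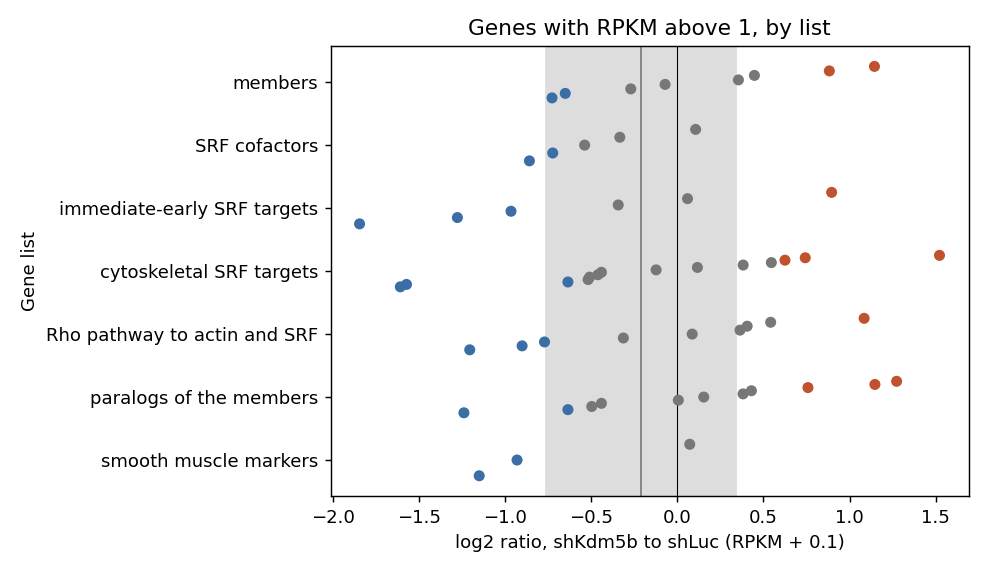
Log2 ratio of shKdm5b to shLuc for the genes with an RPKM above 1 in the set (members) and in 6 lists of related genes. Each point is a gene, orange where more than 1.5-fold higher, blue where more than 1.5-fold lower and grey otherwise. The shaded band is the middle 50% of the 11804 expressed genes, from -0.76 to 0.34, and the grey line their median of -0.21.

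Markers of cell types in which these genes are abundant were mostly below 1 RPKM in both libraries, with exceptions named here. Smooth muscle myosin heavy chain, *Myh11*, had 55 and 16 reads (0.107 and 0.0334 RPKM), and of 10 smooth muscle markers 3 had an RPKM above 1, with a summed RPKM of 20.8 in shLuc and 12.4 in shKdm5b. *Smtn* (12.6 and 6.59 RPKM, log2 ratio -0.93) and *Des* (2.76 and 1.19 RPKM, -1.15) were lower, opposite to *Cnn1* and *Myl9*. Of all expressed genes, 32.0% were lower and 48.3% passed in either direction. *Smtn* and *Des* came within 1.5-fold after the GC correction, and *Ppp1r14a* (3.49 and 3.68 RPKM) passed it at 0.97. Of 14 heart and skeletal muscle markers, 2 had an RPKM above 1, *Tnni3* (1.68 and 0.901 RPKM) and *Myl7* (1.60 and 1.52 RPKM), while *Tnnt2* had 0 and 7 reads. Of the 5 endothelial markers, 0 had an RPKM above 1. Among 6 early mesoderm markers, *Eomes* had 2.45 and 4.05 RPKM (log2 ratio 0.70) and *T* had 6 and 47 reads, while *Mixl1* had 50 and 35, *Hand1* 15 and 12, *Mesp1* 4 and 2 and *Foxf1a* 0 and 1, with a median log2 ratio of 0.04 over the 6. The part of these cell types in the values of the set was not tested.

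Fibroblasts were of interest because the ES cells had been grown on them and because they express *Acta2*, *Tagln*, *Cnn1* and *Myl9*. Of 17 fibroblast markers, 3 had an RPKM above 1, and the summed RPKM was 10.005 in shLuc and 14.9 in shKdm5b. The fibrillar collagens and 2 other matrix genes were below 1 RPKM, with *Col1a1* at 0.474 and 0.395 RPKM, *Col1a2* at 0.142 and 0.201 RPKM, *Col3a1* at 15 and 17 reads, *Lum* at 2 and 4 reads and *Postn* at 3 and 0 reads. Others below 1 RPKM differed in both directions, with *Lox* at 74 and 143 reads, *Dcn* at 17 and 43, *Pdgfrb* at 212 and 322 and *Pdgfra* at 260 and 54, and the median log2 ratio over the 17 was 0.08. Of the 3 above 1 RPKM, *Thy1* had 4.08 and 4.59 RPKM, *Fbln2* was lower (1.05 and 0.381 RPKM) and *Twist1*, a transcription factor of mesenchyme, was higher (1.95 and 7.05 RPKM, log2 ratio 1.80, 1.65 to 2.06). *Twist1* differed between the libraries by more RPKM than the sum of the list did. Of all expressed genes, 16.3% were higher and 32.0% lower by more than 1.5-fold.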

How the data were processed

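RNA-Seq of R1 ES cells at 72 h without LIF gave 1 shLuc and 1 shKdm5b library. Per RefSeq entry, the authors deposited a whole-number read count, the transcript length and an RPKM value normalized to length and aligned reads. The submitters' processing notes name CASAVA 1.0, Bowtie 0.12.7 and mm8, and the deposited alignments all span 50 bases. The counting program is not given in the sources used here. For a symbol with several entries, that of highest mean RPKM was used. Log2 ratios used a pseudocount of 0.1 RPKM, and a gene was counted as different above 1.5-fold with an RPKM above 1 in at least 1 library. With 1 library per condition there is no replicate test. Reads were also tested with the exact test of edgeR 4.0.16 (R 4.3.3) after TMM, over all genes at assumed dispersions of 0, 0.04 and 0.16 and an FDR below 0.001, which compares the libraries only, and DESeq2 1.42.0 gave size factors. GC content came from GENCODE M21 transcripts by RefSeq accession (97.7% of expressed genes), and lowess curves (fraction 0.3, statsmodels 0.14.6) were fitted over expressed genes. GENCODE and RefSeq coordinates (GRCm38) describe genes, not the mm8 alignments. Steps were tested on simulated data. Intervals are exact (Clopper-Pearson or Poisson). Figures used matplotlib 3.10.9. The set and the gene lists were chosen with earlier results of these data known. All members are named, the SRF cofactors in full, and of other lists the most abundant genes, those past the thresholds and defining markers near 0. The choice of genes past the thresholds, and the subtraction of *Tpm1* entries, were made after the values were seen. The deposited alignments were used for their number and width only.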

Additional observations from a re-analysis of the deposited data

How the results depend on the processing

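No paired analysis was possible because shLuc and shKdm5b are 1 library each, which also leaves none to omit. The number of members past 1.5-fold was 4, and stayed between 3 and 6 in 12 of 15 alternatives (other pseudocounts, scalings, RPKM thresholds, the sum of entries, corrections for GC content and length, and edgeR at dispersion 0). It was 1 with a fold change above 2 (*Myl9*) and 0 with the edgeR exact test at a dispersion of 0.04 or 0.16, where 2.30% and 0.00847% of expressed genes passed. The split of 2 higher and 2 lower became 3 higher and 0 lower after scaling to the same median, TMM or DESeq2 size factors, 3 higher and 2 lower with entries summed (*Tpm1* at 0.70), and 4 higher and 0 lower after either correction (*Cnn1*, *Myl9*, *Tagln* and *Tpm1*), where 18.6% (GC) and 15.4% (GC and length) of genes were higher. The scalings raise the ratios of all genes. The share of all genes passing was not counted for the scalings, for a fold change above 2 or for summed entries, so those counts have no share to be read against. The log2 ratio of *Srf* reversed to 0.27 when corrected for GC content and to 0.42 when also corrected for length. The median log2 ratio of the members, -0.17, became -0.0057 after scaling to the same median, 0.0472 with TMM factors, 0.0636 with DESeq2 size factors, 0.37 when corrected for GC content and 0.44 when also for length. *Cnn1*, *Myl9*, *Tagln* and *Tpm1* were higher, and *Acta2*, *Actg2* and *Actc1* lower, under all 9 alternatives that give a ratio. The alternatives reuse the same reads. For *Actg2* (9 and 2 reads) and *Actc1* (16 and 6 reads) the counting intervals include 0, so their direction remains undetermined. The cause of the changes was not tested. The GC curve assumes that a trend with GC content over all genes is not biological, which 1 library per condition cannot show.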
